A study of Mus musculus with 7 samples.

Results

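Mouse autosomes are acrocentric, so the sequenced part of each chromosome starts next to its centromere. The regions described here are the 5mC-enriched DNA intervals whose midpoint lies between 3 and 8 Mb of the 19 autosomes in the mm10 build. These 5 Mb lie at the chromosome end nearest to the centromere, and how many of their bases are undetermined was not read. The regions number 4284 of 133337 in all, chosen by position alone, and are set against the 126598 regions in the rest of the same autosomes. No autosomal region had its midpoint below 3 Mb. The name rests on these coordinates, since the centromere's own repeats are not part of the windows.

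The tested cultures were hippocampal neurons treated with 55 mM KCl for 4 h, and the others were left untreated (3 libraries each). Both came from C57BL/6J embryos at E18.5 and were kept for 11 days in vitro, with AraC, which acts on dividing cells, in the exchanged medium. A pooled input library was not analysed here. The labelled cell type could not be checked against marker genes, because DNA enrichment measures no expression, and the labels leave unsaid if the 3 libraries stem from different cultures or embryos. The p-values therefore measure the spread between libraries, which may be technical.

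Mouse centromeres carry minor satellite repeats and are flanked by blocks of major satellite, packed as heterochromatin whose cytosines are heavily methylated. In MeDIP-seq, an antibody against 5-methylcytosine (5mC) pulls down methylated DNA fragments, and stretches where sequenced fragments pile up are called as intervals. Such a pile-up depends on how many methylated CpG a stretch holds and on whether its reads can be placed in the genome, so it is not a methylation level. Potassium chloride depolarises neurons and is used to mimic activity.

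Each library came with its own called intervals, and each interval with a summit height, the whole-number pile-up at its highest point. An active region is a merge of the intervals of the 6 libraries. The KCl libraries held 93470, 60949 and 34834 intervals, and the untreated libraries 87151, 87302 and 72947. The third KCl library stands apart with the fewest intervals. Read totals are unknown, and whether heights were scaled between libraries is not given.

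Few promoters of the windows lay under a called region, and the sequences of 4 show how different such promoters were in CpG content. Of the 1270 promoter stretches in the windows, each 300 bases around a RefSeq start, 44 (3.46%) overlapped a member, against 1371 of 30126 (4.55%) in the rest of the autosomes. In the windows, the median CpG number per 300 bases was 8.5 in covered promoters (quartiles 5.75 and 13.25). In uncovered promoters it was 8, with a wider spread (quartiles 2 and 21). The motif searched was CG, which reads the same on both strands, and 94.6% of the promoters in the windows and 94.8% of all 31396 autosomal ones hold it at least once. The 4 stretches below are shown because a member called in all 6 libraries covers the whole promoter. They come from RefSeq (GRCm38.p6, the coordinates of mm10) and leave out all bases within an annotated gene. The promoter of Gm42064 meets the same condition, under the member chr19:5306638-5307846 with a mean height of 108, but lies wholly within the gene Gal3st3 and is not printed. All are written on the plus strand, 5′ to 3′, with each CpG in capitals.
LOC115490388, chr6:3182866-3183115: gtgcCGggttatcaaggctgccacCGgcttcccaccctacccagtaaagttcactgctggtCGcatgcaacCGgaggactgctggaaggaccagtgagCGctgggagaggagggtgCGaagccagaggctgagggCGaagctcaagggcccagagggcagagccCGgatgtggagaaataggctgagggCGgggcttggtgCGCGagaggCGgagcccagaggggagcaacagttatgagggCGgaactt
Usp29 and Peg3, chr7:6730463-6730558: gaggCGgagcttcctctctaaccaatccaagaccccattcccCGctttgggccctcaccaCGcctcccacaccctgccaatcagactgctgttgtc
Rab10os, chr12:3235541-3235790: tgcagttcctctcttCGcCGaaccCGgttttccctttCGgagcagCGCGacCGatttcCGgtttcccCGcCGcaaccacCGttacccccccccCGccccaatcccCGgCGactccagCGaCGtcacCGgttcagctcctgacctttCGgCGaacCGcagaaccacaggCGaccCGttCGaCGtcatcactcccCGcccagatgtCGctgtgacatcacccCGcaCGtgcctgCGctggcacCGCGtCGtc
Gm38761, chr6:4654304-4654553: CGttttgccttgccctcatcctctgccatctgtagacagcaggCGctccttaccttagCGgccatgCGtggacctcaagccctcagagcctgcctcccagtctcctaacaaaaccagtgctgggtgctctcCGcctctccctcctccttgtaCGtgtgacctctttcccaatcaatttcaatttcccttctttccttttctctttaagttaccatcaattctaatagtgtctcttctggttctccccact

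The Rab10os stretch holds 32 CpG in 250 bases and the Gm38761 stretch 6, yet both were called in every library. LOC115490388, Rab10os and Gm38761 are long noncoding RNAs in RefSeq. Usp29 and Peg3 are neighbouring genes read in opposite directions, and the 96 bases between their annotated starts hold 3 CpG. These bases are only a part of each promoter stretch. In full, the promoter stretch of Usp29 holds 17 CpG and that of Peg3 holds 13, both above the median of covered promoters in the windows. The member over LOC115490388 (chr6:3182511-3183509) had heights of 71, 46 and 39 in KCl libraries, against 69, 68 and 47 in untreated libraries. The member over Rab10os (chr12:3234928-3236164) had 35, 37 and 14 in KCl libraries, against 25, 65 and 22 in untreated libraries. The member over Gm38761 (chr6:4654190-4654923) had 25, 17 and 10 in KCl libraries, against 15, 17 and 25 in untreated libraries. The groups overlap for all 3, and a single untreated library, the second, sets the high end for Rab10os.

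The windows held fewer enriched regions per Mb than the rest of their autosomes. Over all 19 autosomes the density was 45.1 regions per Mb in the windows and 54.8 in the rest, a ratio of 0.822. Undetermined bases were not subtracted from either length. The windows were lower on 16 autosomes and higher on chromosomes 6, 17 and 19. The median ratio was 0.821, and it ran from 0.190 on chromosome 14 to 1.34 on chromosome 19.

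The same deficit appeared inside every library. KCl libraries had 32.3, 21.6 and 13.1 intervals per Mb in the windows, against 38.4, 25.1 and 14.3 in the rest. Untreated libraries had 30.4, 30.6 and 25.7 intervals per Mb in the windows, against 35.8, 36.0 and 30.0 in the rest. The windows were thus lower in 6 of 6 libraries, with the smallest gap in the third KCl library. The mean was 25.6 ± 7.27 intervals per Mb in the windows and 29.9 ± 9.06 in the rest (SD, n = 6), a difference of -4.30 (exact sign-flip permutation test, two-sided, p = 0.03125, the smallest that 6 libraries allow). Sign-flip tests here and below measure how far libraries of the same genome agree. They do not test whether these windows differ from other stretches of 5 Mb. Counted over the first 2.5 Mb alone, up to 5.5 Mb, the difference was -2.17 with an exact permutation p of 0.0625. Without chromosome 14 it was -3.45, and against a rest weighted to the gene numbers of the windows it was -4.88 (exact permutation p = 0.03125 for each).

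**Figure D1:**
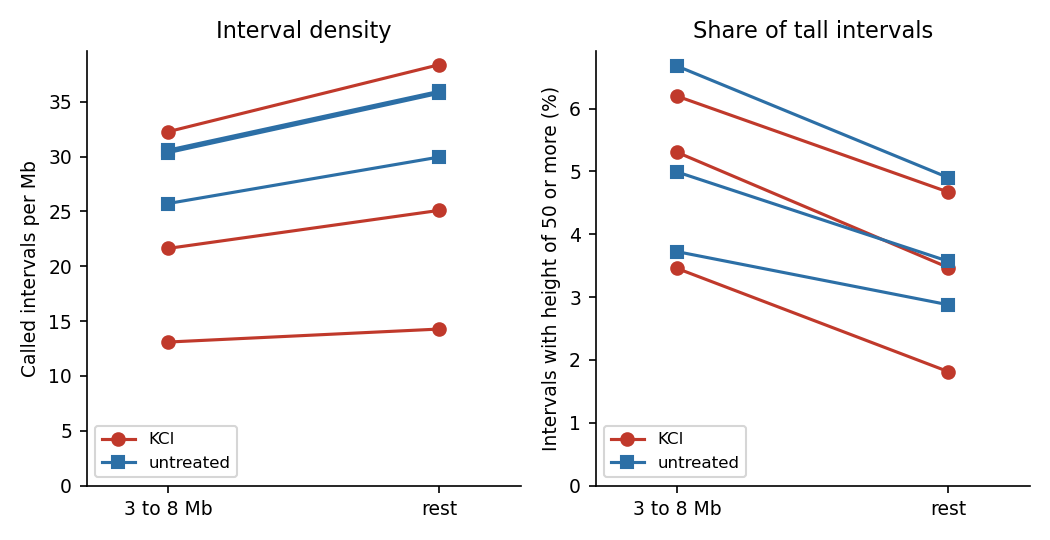
Called intervals per Mb (left) and the percentage of intervals with a summit height of 50 or more (right) in the windows and in the rest of the autosomes, with a line for each of the 3 KCl and 3 untreated libraries. All 6 lines rise towards the rest on the left and fall towards it on the right; the third KCl library is the lowest in both panels, with 13.1 intervals per Mb in the windows.

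The opposite chromosome ends differed more. The last 5 Mb of the autosomes held 6892 regions, and the libraries had 41.0 ± 11.4 intervals per Mb there (SD, n = 6). The windows next to the centromere were lower than these ends by 15.4 intervals per Mb, again in 6 of 6 libraries (exact sign-flip permutation p = 0.03125). Leaving these ends out of the rest changed the difference of the windows to -3.83.

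Low density was not confined to the windows. Going out from the window start in bins of 1 Mb, the mean over autosomes was 42.7, 48.4, 51.7, 47.3 and 35.4 regions per Mb within the window. In the 15 bins that follow, it lay between 28.6 and 52.4. The mean of all 20 bins was below the 54.8 regions per Mb of the pooled rest. With each autosome cut into 5 Mb windows, the first window was below the median of its autosome on 10 autosomes, above it on 7 and at it on 2. The median first window held 43.6 regions per Mb, against 48.2 over the other 453 windows.

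**Figure D2:**
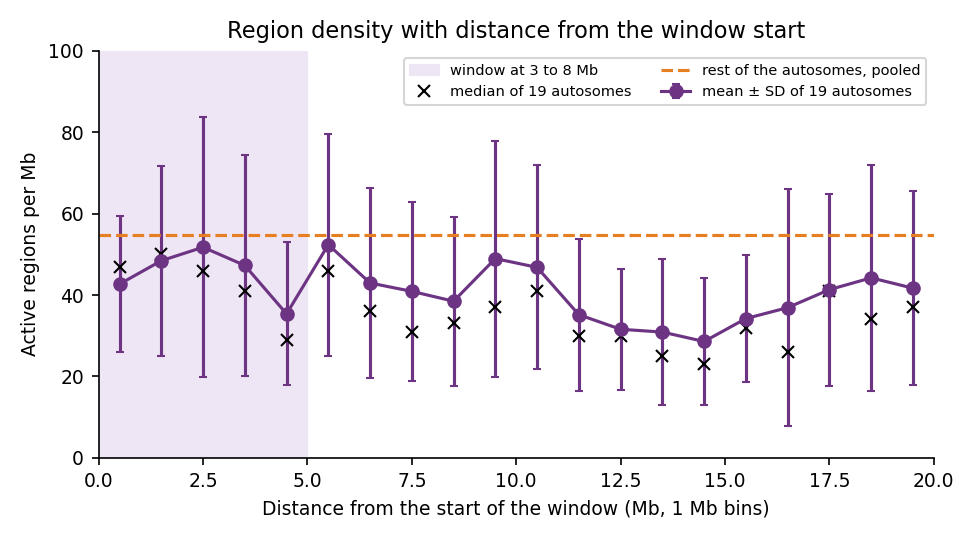
Active regions per Mb in 1 Mb bins with distance from the window start (points and bars, mean ± SD of 19 autosomes; crosses, medians), with the window shaded and the pooled rest of the autosomes as a dashed line. The mean starts at 42.7 in the first bin, reaches 51.7 in the bin from 2 to 3 Mb and stays below the dashed line at 54.8 in all 20 bins.

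Single autosomes differed widely. The 3 lowest ratios belonged to chromosomes 14, 8 and 9. The window of chromosome 14 held 44 regions, 8.80 per Mb against 46.3 per Mb in its rest, the lowest of its 24 windows of 5 Mb. Chromosome 8 had 31.4 regions per Mb in the window and 63.5 in the rest, and chromosome 9 had 32.2 and 61.0. At the other end, chromosome 19 held 432 members, 86.4 per Mb in the window and 64.4 in the rest. Chromosome 17 had 77.0 regions per Mb in the window and 63.7 in the rest, and chromosome 6 had 54.8 and 48.4. These contrasts depend on how far the window reaches. The log2 ratio of chromosome 14 was -2.40, against -0.98 with windows up to 13 Mb and -3.37 up to 5.5 Mb, and that of chromosome 8 was -1.02, against -0.14 and -0.54. With windows up to 13 Mb, chromosomes 6 and 19 fell below their rest (log2 ratios of -0.21 and -0.0524).

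Per library, 12 autosomes had fewer intervals per Mb in the window than in the rest in all 6 libraries. Chromosomes 6, 11, 17 and 19 had more in all 6. Chromosomes 2, 7 and 16 were mixed. Chromosome 11 counts among those with more although its active regions were level, at 64.4 per Mb in the window and 64.5 in the rest.

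**Figure D3:**
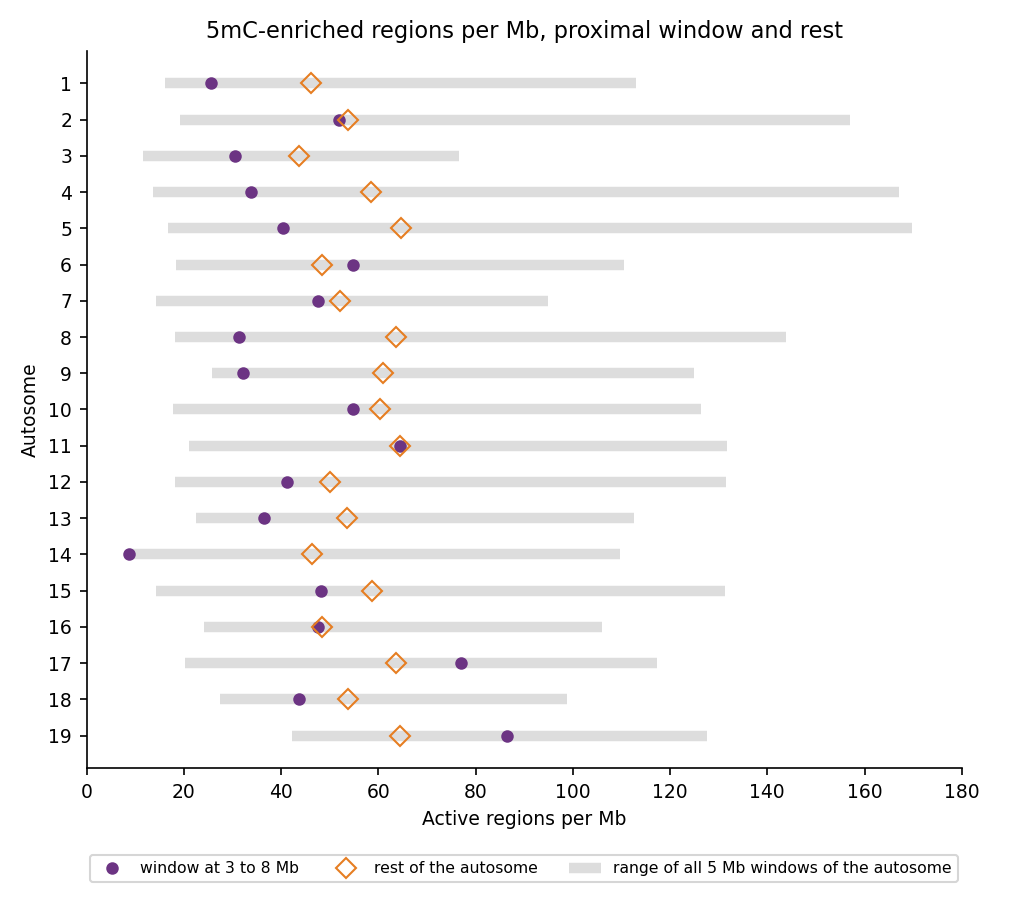
Active regions per Mb in the window at 3 to 8 Mb (filled circles) and in the rest (open diamonds) of each autosome, with grey bars for the range of all 5 Mb windows of that autosome. The circle of chromosome 14 lies at 8.80, at the low end of its bar, and that of chromosome 19 at 86.4, to the right of its diamond at 64.4.

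Genes and regions did not follow each other in every window. Protein-coding genes numbered 868 in the windows, 9.14 per Mb, against 8.53 per Mb in the rest, and were denser than in the rest on 5 autosomes. The window of chromosome 19 held 36.6 genes per Mb, against 9.79 in its rest, and 141 of its 183 genes (77.0%) had a region in the body or within 1 kb of an end. The window of chromosome 14 was also gene-rich, with 16.0 genes per Mb against 6.59 in its rest, but 10 of its 80 genes (12.5%) had such a region. Of these 80 genes, 71 carry symbols starting with Gm, provisional names for predicted genes, and 7 of the 71 had a region. Across the 19 first windows, regions and genes per Mb correlated with a Pearson coefficient of 0.48 and a Spearman coefficient of 0.48, and without chromosome 14 with 0.67 and 0.65. Over the other 453 windows the values were 0.43 and 0.59. These windows share the same libraries and differ in base composition, so the correlations are descriptions only.

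Over all windows, 572 of 868 genes (65.9%) had a region in the body or within 1 kb of an end, against 13232 of 19692 (67.2%) in the rest. A member lay in a protein-coding gene body in 48.4% of cases, against 52.5% of regions in the rest. Members near a gene end, within 1 kb of it, made up 5.14% (220 members), against 4.59% in the rest. Pooled over the autosomes, these shares were thus close in the windows and the rest. Single autosomes differed in both directions. On chromosome 3, 15.0% of members lay in a protein-coding gene body, against 45.3% in its rest. On chromosome 19 it was 76.9%, against 56.9% in its rest.

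The members were about as long and as often shared as other regions. Their median length was 355 bp, against 357 bp in the rest. Members called in all 6 libraries numbered 981 (22.9%), against 20.4% in the rest, and those of a single library 1172 (27.4%), against 29.3%. Regions called in all 6 libraries had a density of 10.3 per Mb in the windows and 11.2 per Mb in the rest, with fewer in the windows on 12 autosomes. Chromosome 19 had 24.2 such regions per Mb in the window and 12.7 in its rest. Chromosome 14 had 2.60 in the window and 8.86 in its rest.

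The median height of members was close to that of other regions, while tall members were more frequent. The median summit height per library was 15.5 ± 0.837 in the windows and 15.2 ± 0.753 in the rest (SD, n = 6), a difference of 0.333 (exact sign-flip permutation p = 0.5). The mean height was 21.0 ± 1.39 in the windows and 19.5 ± 1.27 in the rest, higher in 6 of 6 libraries (exact sign-flip permutation p = 0.03125). Intervals with a height of 50 or more made up 6.20%, 5.30% and 3.46% in the windows of the KCl libraries, against 4.67%, 3.47% and 1.81% in the rest. In the untreated libraries they made up 4.99%, 6.68% and 3.72% in the windows, against 3.57%, 4.90% and 2.88% in the rest. The share was higher in the windows in 6 of 6 libraries, by 1.51 percentage points (exact sign-flip permutation p = 0.03125).

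Tall members gathered at a few places. Of the 118 members with a mean height of 50 or more, 19 lay on chromosome 9, 16 on chromosome 11, 14 on chromosome 19 and none on chromosome 14. The first 100 kb of the windows held 61 members, and 19 of them (31.1%) reached 50. Without these first 0.1 Mb the share of tall intervals was 4.33% and without Sfi1 as well 4.20%, against 3.55% in the rest, still higher in 6 of 6 libraries (exact permutation p = 0.03125 for each). The mean height without both was 20.04, against 19.5.

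The start of chromosome 9 held a dense cluster. Of the 61 members in the first 100 kb, 31 lay on this chromosome, within 38.5 kb (chr9:2999959-3038500), in no protein-coding gene. The nearest such gene, Alkbh8, lies 298450 to 333706 bp from its tallest members. Of the 31, 18 were called in all 6 libraries and 18 reached a mean height of 50, with mean heights from 15.0 to 192. The first 100 kb of all other autosomes together held 30 members, with a median height of 14.8, and 1 of them reached 50.

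The tallest of the cluster, chr9:3025005-3027886, had heights of 219, 201 and 163 in KCl libraries, against 195, 213 and 163 in untreated libraries. Its neighbour chr9:3035627-3036781 had 230, 175 and 153 in KCl libraries, against 201, 207 and 162 in untreated libraries. In both, the groups overlap. Over the 18 members called in all 6 libraries, the mean height was 93.9 ± 15.1 in KCl libraries and 94.96 ± 13.3 in untreated libraries (SD, n = 3 each; exact permutation p = 1). Whether this stretch repeats sequence found elsewhere, so that reads of other places pile up there, was not tested.

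**Figure D4:**
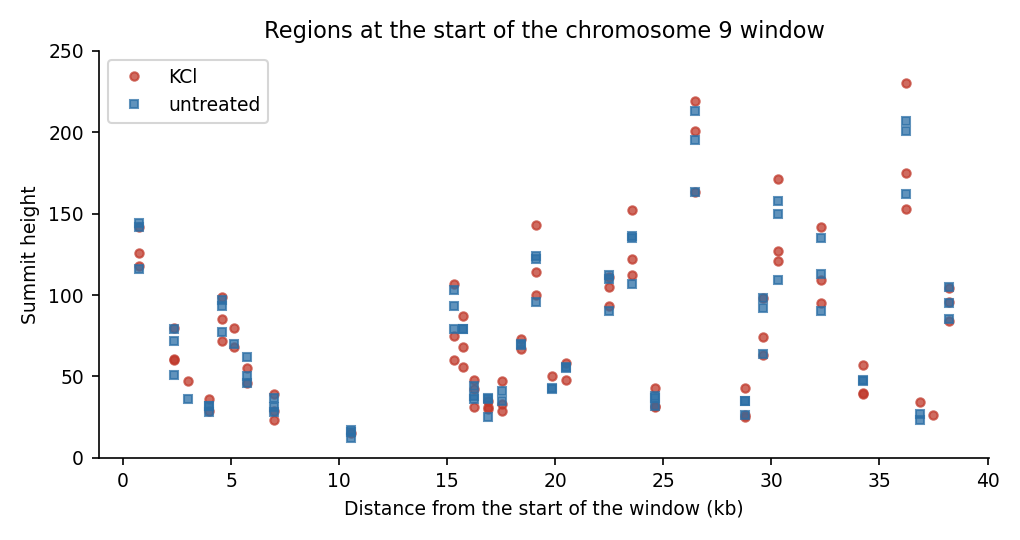
Summit heights in each of the 3 KCl (circles) and 3 untreated (squares) libraries of the 31 regions at the start of the chromosome 9 window, by distance from the window start in kb. The tallest points reach 219 and 230 with KCl and 213 and 207 without, and circles and squares lie among each other along the 38.5 kb.

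The 2 tallest of all members lay in Sfi1 on chromosome 11, a gene for a centrin-binding protein of the centrosome. Its 71.5 kb in the window held 4 members, with mean heights of 128.5 to 289. The member chr11:3191664-3195372 had 331 and 267 in KCl libraries and was not called in the third, against 308, 321 and 219 in untreated libraries. The member chr11:3149394-3151713, called in all 6, had 295, 237 and 206 in KCl libraries, against 266, 277 and 210 in untreated libraries. Both differ less between the groups than between libraries of a group. The member chr11:3131220-3136243, 5024 bp long and the longest of all 4284, was called in 5 libraries, and chr11:3173170-3174173 in 2. Why these tall regions were not called in the remaining libraries was not tested.

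Across the 19 autosomes the tallest member called in all 6 libraries ranged from the Sfi1 region, with a mean height of 248.5, to a region in Dnase1l3 on chromosome 14, with 40.7. Dnase1l3 encodes a secreted DNase, and its member (chr14:7980041-7980603) had 46, 35 and 28 in KCl libraries, against 44, 50 and 41 in untreated libraries. On chromosome 3 the tallest (chr3:5860193-5860922), 281597 bp from the nearest protein-coding gene Pex2, had 155, 119 and 98 in KCl libraries, against 153, 160 and 115 in untreated libraries. On chromosome 17 it lay in Synj2, a phosphoinositide phosphatase gene (chr17:5949226-5949939), with 149, 135 and 91 in KCl libraries, against 129, 154 and 114 in untreated libraries. In all 19 autosomes the heights of the 2 groups overlap at this region.

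Further such regions lay in Rbfox1 (chromosome 16, mean height 124.5), in the overlapping Rbm14 and Gm21992 (chromosome 19, 109), in Zfp865 (chromosome 7, 108), in Dync1i1 (chromosome 6, 87.5) and in Dtnb (chromosome 12, 81.3). Lifr, the leukaemia inhibitory factor receptor, held that of chromosome 15 (70.7). Jcad held that of chromosome 18 (67.5), and Lats1, a kinase of the Hippo pathway, that of chromosome 10 (63.8). On chromosomes 1, 2, 4, 5, 9 and 13, as on chromosome 3, the tallest region lay in no protein-coding gene body.

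**Figure D5:**
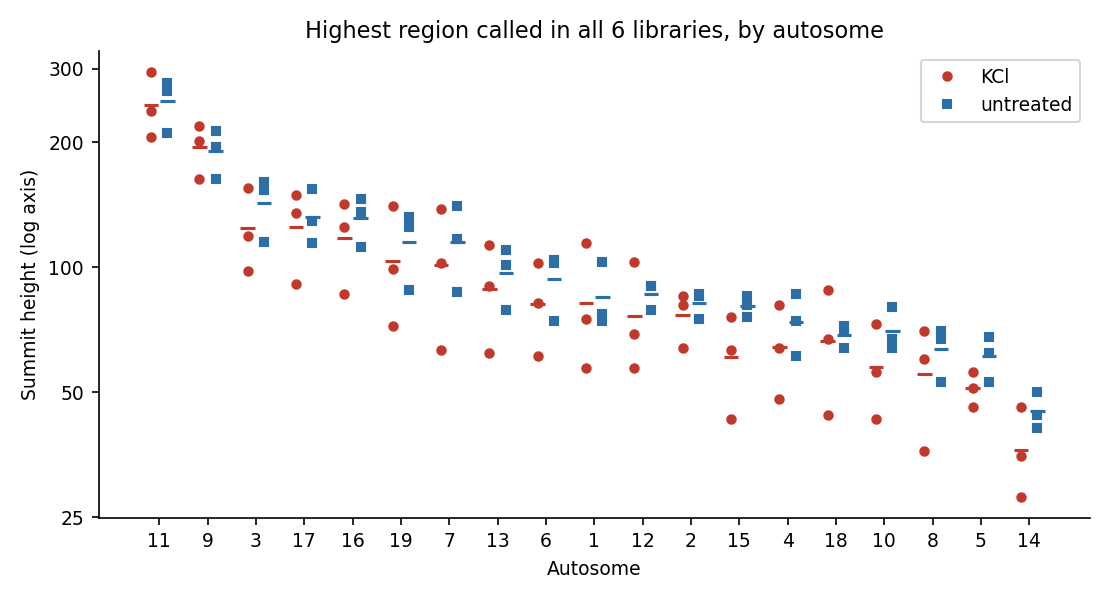
Summit height on a log axis of the tallest region called in all 6 libraries in the window of each autosome, with circles for the 3 KCl libraries, squares for the 3 untreated libraries and short lines for group means. The regions are ordered by mean height, from 248.5 on chromosome 11 to 40.7 on chromosome 14, and the groups overlap on all 19 autosomes.

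The 8 Mb limit rests on position alone. The closest pair of regions across it lay on chromosome 5, where the member chr5:7995221-7996472 had a mean height of 30.2 in 6 libraries and the region chr5:8001654-8001979, just past 8 Mb, 11.6 in 5 libraries.

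The share of a library's autosomal intervals that fell into the windows differed between KCl and untreated by less than the spread between KCl libraries. It was 3.34%, 3.42% and 3.64% in KCl libraries, against 3.37%, 3.38% and 3.41% in untreated libraries. The third KCl library, the one with the fewest intervals, had the highest share. The means were 3.47% ± 0.151 with KCl and 3.39% ± 0.0200 without (SD, n = 3 each), a difference of 0.0786 percentage points (exact permutation p = 0.6, two-sided; 3 against 3 cannot go below 0.1). Without the third KCl library the difference was -0.00538.

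Members called in all 6 libraries had mean heights of 37.2, 28.6 and 20.6 in KCl libraries, against 32.7, 36.9 and 28.8 in untreated libraries. The spread within the KCl group was wider than the gap between the groups. The means were 28.8 ± 8.29 with KCl and 32.8 ± 4.06 without (SD, n = 3 each; difference -3.99, exact permutation p = 0.6), and without the third KCl library the difference was 0.145. Relative to the other autosomal regions of the same library, members were higher by 0.05 on the log2 scale in each group, 0.0509 ± 0.00330 with KCl and 0.0461 ± 0.0133 without (exact permutation p = 0.6). Without the third untreated library this difference, 0.00480, became -9.58e-05.

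No member passed the test for a change in height with KCl. Of the 4284 members, 746 were called in all 6 libraries with a mean height of at least 18.7 and were tested; the other 3538 were not. None of the 746 had an adjusted p under 0.05 in either direction (limma on log2(height + 1), Benjamini-Hochberg over 20537 regions, lowest adjusted p 0.932), against 0% of all tested regions. At an unadjusted p under 0.05, 0 members were higher and 6 lower, against 1.12% lower of all regions (231). After centring each library on its median, 19 members (2.55%) were higher and 7 (0.938%) lower, against 1.97% and 1.67% of all regions. Without the first KCl library 136 members (18.1%) were lower, against 20.8% of all 20796 regions. These shares of members lie near those of all regions.

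The whole set of regions was shifted by a median log2 change of -0.25, so changes of members are given relative to this median. Adjusted p-values of single members test the heights as deposited, before this subtraction, unless median centring is named. SE come from the limma fit with median centring, where the lowest adjusted p was 0.99995. The relative changes ran from -0.51 to 0.59, with quartiles of -0.10 and 0.15. Of the 746 members, 410 lay above the median and 336 below, with a median of 0.02, against -0.00128 for the rest of the autosomes. All 3 KCl heights were below all 3 untreated heights in 22 members (2.95%), against 4.14% of all tested regions, and above them in 0 members, against 0.0292%. By autosome the median relative change ran from -0.06 on chromosome 3 to 0.19 on chromosome 9, with 10 to 96 tested members each.

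The value of chromosome 9 came with its cluster at the start, where all 18 tested members lay above the median, with a median of 0.24. Tall regions were then counted without this cluster, in a grouping by height chosen after the values were seen. Of the tested members outside it with a mean height of 50 or more, 66 of 96 (68.8%) lay above the median, against 1292 of 2256 tested regions (57.3%) in the rest of the autosomes. At 100 or more it was 10 of 10 tested members, against 163 of 198 (82.3%). Members of that height not called in all 6 libraries, 3 of them in Sfi1, were not tested. With the cluster kept in, 58.0% of tested members with a mean height under 25 lay above the median, against 52.6% in the rest. From 25 to under 50 it was 47.4%, against 45.9%. Such a relative change compares a region with the whole library and is not a rise in height: the cluster's mean heights overlapped between the groups.

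The 5 members ranked first above the median were 3 regions of the chromosome 9 cluster, the Sfi1 region called in all 6 libraries and chr4:5266645-5267176. The region on chromosome 4 lies 376833 bp from Fam110b and had 37, 27 and 20 in KCl libraries, against 23, 18 and 23 in untreated libraries. Its groups overlap, and its relative log2 change was 0.59 ± 0.22 (SE). The limma adjusted p was 0.932 for heights as deposited and 0.99995 after median centring. The cluster regions chr9:3018700-3019552 and chr9:3031786-3032796 had relative changes of 0.30 and 0.28, and the Sfi1 region 0.21.

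The 5 ranked first below the median lay in Rbfox1, Arid1b, Batf2 and Oprm1 and near Sf3b6, a splicing factor gene. The member in Arid1b, a subunit gene of the BAF chromatin remodelling complex (chr17:5102231-5102588), had 20, 22 and 14 in KCl libraries, against 28, 31 and 37 in untreated libraries. The member in Batf2, a bZIP transcription factor gene (chr19:6164505-6164906), had 25, 23 and 12 in KCl libraries, against 28, 40 and 30 in untreated libraries. In both the groups do not overlap, and their relative log2 changes were -0.51 ± 0.22 and -0.48 ± 0.21 (SE).

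The member in Oprm1, the mu opioid receptor gene (chr10:6860241-6860680), had 32, 19 and 18 in KCl libraries, against 30, 39 and 43 in untreated libraries. In Rbfox1 (chr16:6723139-6723506) the heights were 56, 41 and 16 in KCl libraries, against 53, 63 and 50 in untreated libraries. The member 15815 bp from Sf3b6 (chr12:4801324-4801793) had 47, 30 and 30 in KCl libraries, against 53, 68 and 44 in untreated libraries. For these 3 the groups overlap. All 5 had a limma adjusted p of 0.932 for heights as deposited and 0.99995 after median centring.

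Some members were called in all libraries of a condition and in none of the other. Of the 4284, 1 was called in every KCl and no untreated library (0.0233%, against 0.0363% in the rest), and 47 in every untreated and no KCl library (1.10%, against 1.01%). When each library kept its 34834 highest intervals, the numbers were 3 (0.0700%, against 0.177% in the rest) and 10 (0.233%, against 0.194%).

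Long genes held many of the members. Rbfox1, a regulator of neuronal splicing that spans 1528 kb in the window of chromosome 16, held the most, with 76 members in its body, 21 of them called in all 6 libraries. Its tallest (chr16:6695708-6696342) had 142, 125 and 86 in KCl libraries, against 136, 146 and 112 in untreated libraries, and of its 16 tested members 8 lay above and 8 below the median. Klhl29, of the kelch-like family, held 35, Dync1i1, an intermediate chain of the dynein motor, 30, and Arid1b, the kinases Camk1d and Cdk14 and the palmitoyltransferase Zdhhc14 29 each. Syne1, for the nuclear envelope protein nesprin-1, held 27, and Mthfd1l, a mitochondrial folate enzyme, and Tox, a DNA-binding HMG-box protein, 24 each.

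These 10 genes held 332 of the 4284 members, and 548 genes held at least 1 in the body. The 10 were ranked by count, without regard to gene length. Per 100 kb of gene the numbers were 4.97 in Rbfox1, 5.03 in Cdk14, 11.1 in Zdhhc14, 11.7 in Klhl29 and 12.4 in Mthfd1l. Rbfox1 had the lowest of the 10, close to the 45.1 regions per Mb of the windows as a whole. Sharing between libraries differed too. Syne1 had 1 member called in all 6 libraries and Tox none, while Arid1b and Dync1i1 had 9 each.

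Imprinted genes are read from a single parental copy, and their control regions carry methylation on the chromosome of either the mother or the father; the windows of chromosomes 6 and 7 hold groups of them. Of 13 listed genes in the windows, imprinted themselves or next to such a gene, 12 had a member in the body or within 1 kb of an end and 7 had a member called in all 6 libraries; Tfpi2 had none. Of all genes of the windows 65.9% had a member, and how many had one called in all 6 libraries was not counted. Counted gene by gene, the tested members of the listed genes numbered 10, with 4 above and 6 below the median. A member shared by neighbouring genes counts for each of them.

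Peg3 and Usp29, both expressed from the paternal copy, share the member chr7:6729843-6730893 that covers the sequence between them. It had 59, 42 and 21 in KCl libraries, against 49, 62 and 52 in untreated libraries, a relative log2 change of -0.27. For its heights as deposited the limma adjusted p was 0.932. The groups overlap through the first KCl library. The tallest member of Peg3, a zinc finger gene (chr7:6710419-6711043), had 84, 66 and 37 in KCl libraries, against 64, 94 and 55 in untreated libraries.

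Peg10, a paternally expressed gene derived from a retrotransposon, and its neighbour Sgce share the member chr6:4747264-4748659 at their facing ends. It had 46, 33 and 15 in KCl libraries, against 29, 41 and 27 in untreated libraries, with overlapping groups and a relative log2 change of 0.09. Calcr, the calcitonin receptor gene, had 2 members, the taller of which (chr6:3687294-3687837) had 49, 44 and 24 in KCl libraries, against 49, 60 and 36 in untreated libraries.

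Of 9 listed genes for neuronal receptors, peptides and regulators, 6 had a member, near the 65.9% of all genes of the windows. Pomc, Oprk1 and Tac1, genes for neuropeptide precursors and an opioid receptor, had none. Gene length was not taken into account in these counts. The 20 tested members of the list split evenly, 10 above and 10 below the median, 16 of them from Rbfox1. The 8 members in Gria4, an AMPA receptor subunit, were called in at most 5 libraries. In Adcy9, an adenylyl cyclase (chr16:4310061-4310416), heights were 47, 33 and 24 in KCl libraries, against 49, 47 and 42 in untreated libraries.

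Of 12 listed chromatin and transcription regulators, 9 had a member, against 65.9% of all genes of the windows. Crem, Sox17 and Hnf4g had none. The 9 tested members split into 5 above and 4 below the median, 8 of them from Arid1b. Dnmt3a, a methyltransferase that sets new cytosine methylation, held 10 members in its body. The tallest (chr12:3849514-3849966) had 29, 33 and 17 in KCl libraries, against 40, 36 and 39 in untreated libraries, and these groups do not overlap. Its relative log2 change was -0.33 ± 0.19 (SE), and the limma adjusted p of its heights as deposited was 0.932. Crebbp, a histone acetyltransferase gene of 133 kb, held 1 member, called in 2 libraries.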

How the data were processed

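MeDIP-seq of 3 KCl and 3 untreated libraries was analysed; a service company made the libraries, per the labels' protocols. The submitters' processing notes name BWA, SICER and mm10, without versions. The deposited values, per the file headers, were 13 tracks: called intervals and summit heights per library, and the active regions. Heights are whole numbers of at least 6; how they were normalized is not given in the sources used here, and the depth is unknown.

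Of 133337 active regions, 133311 equal a merge of library intervals; each took the highest summit per library. Intervals were placed by midpoint, on length from 3 Mb to the last region or gene. Libraries were compared with exact permutation tests. Heights were tested with limma 3.58.1 (R 4.3.3, intensity trend) on log2(height + 1), for regions called in all 6 libraries at or above the 25th percentile of height, at an adjusted p of 0.05. On simulated heights with median centring, 50 of 88 regions changed 2-fold and 81 of 82 changed 4-fold were recovered. The main test did not centre heights, and the simulated libraries varied independently, so these recoveries need not hold for it.

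Same-numbered libraries deviated together across regions (correlations 0.113, 0.108 and 0.114, others -0.0882 to -0.0137), so by the limit of 0.1 same-numbered libraries count as paired, although no label gives the meaning of the numbers; main tests are unpaired. Named were the tallest member per autosome called in all 6 libraries (the gene at that of chromosome 8 is not reported here), the 5 tested members ranked first on each side of the median by centred p, the pair nearest 8 Mb, the 10 genes with most members, 3 gene lists and the extreme autosomes; other regions among the tallest, the Dnmt3a member and the first 0.1 Mb were singled out after their values were seen. Members and lists were chosen with earlier results of these data known. Genes came from RefSeq (GRCm38.p6), without strand or exons. The listed symbols Zim2, Zim3, Cdh20, Gnat3 and Kcnh8 were dropped. Each had its midpoint outside the windows or no protein-coding entry under that symbol, and these cases were not told apart. No genome sequence was used here, so the planned correction for undetermined bases was not run and promoter sequences replaced those at summits.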

Additional observations from a re-analysis of the deposited data

Results flagged for a closer look

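The same interval of chromosome X, which no comparison above uses, held 84 regions, 16.8 per Mb against 14.02 per Mb in the rest of chromosome X. It stands out because it is signal in data outside the autosomal comparisons.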

How the results depend on the processing

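The lower density of the windows kept its direction under every alternative run, and 10 of 17 kept an exact permutation p of 0.03125. Up to 5.5 Mb it was -2.17, and leaving out a library gave -4.92 to -3.94, where 5 libraries allow no p under 0.0625. The height difference was 0 in windows up to 13 Mb, -0.167 against the last 5 Mb, 1.52 as a mean, 0.815 as a mean without the first 0.1 Mb and 0.567 without Sfi1 as well. With KCl, leaving out a library gave -0.00538 to 0.141 percentage points for the share, -8.16 to 0.145 for mean height and -9.58e-05 to 0.0144 for relative height, which was -0.00324 in windows up to 13 Mb. The cause was not tested. In windows up to 13 Mb the log2 ratio was -0.21 on chromosome 6 and -0.0524 on chromosome 19; 34 of 36 recomputed ratios of the named autosomes kept their sign, and 15 moved by more than the spread between libraries, among them chromosome 8 (-0.14) and chromosome 14 (-0.98) in those windows. The 10 named regions kept their direction in 125 of 125 recomputations, and no alternative called a region. A replicate block left 0 calls, with 15 members (2.01%) lower at an unadjusted p under 0.05, against 2.48% of all regions, a share difference of 0.0786 (exact permutation p = 0.5) and no other call changed. Heights near the calling floor, an unknown depth and 3 libraries a group limit what could be detected.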

Other observations

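The window of chromosome 7 was rich in 2 gene families that differed in how often they had a region. Zinc finger genes were counted as those with symbols starting with Zfp, Zscan, Zik or Zim. Of the 18 in this window, 14 (77.8%) had a region in the body or within 1 kb of an end. Over the windows of all autosomes it was 18 of 26 (69.2%), and in the rest of the autosomes 66.8% of 383 such genes. Of the 28 vomeronasal and olfactory receptor genes in this window, 3 (10.7%) had a region, against 10.1% of 1421 in the rest. These receptor genes are short, with a median length of 1230 bp over the windows, and the difference between the families was not tested. The window of chromosome 7 also had the highest median height of members, 14.8, against 13.4 in its rest, and 15.0 regions per Mb called in all 6 libraries, against 11.4 in its rest.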
